A study of Mus musculus with 20 samples.

Results

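The cytosolic ribosomal protein genes encode the proteins that, with ribosomal RNA, form the large and small subunits of the ribosomes of the cytoplasm. They were taken from the count tables by name, as every protein-coding gene named Rpl or Rps followed by a digit, every Rplp gene and Rpsa, without the Rps6k kinases and the names marked as pseudogenes. The rule gave 87 of the 56748 genes listed, the same 87 in each of 2 tables. By function they were 46 large-subunit genes, 31 small-subunit genes, 8 paralogs or retrogenes, and 2 genes that carry the name only. The last are Rpl7l1, a relative of Rpl7 found in assembling ribosomes, and Rps19bp1, whose product binds the Rps19 protein. Of the 87, 84 had at least 10 counts in each table and were tested. The other members, Rpl39l, Rpl10l and Rps23rg1, had fewer.

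The first table held 12 RNA-seq libraries labelled BMDM, the common short name for bone marrow-derived macrophages, either wild-type (WT) or without inducible nitric oxide synthase (iNOS KO). Each genotype was unstimulated or stimulated, with 3 libraries a group. The second table held 8 libraries of RAW264.7, a mouse macrophage cell line, either WT or with the aldo-keto reductase gene Akr1a1 knocked out. The knockout was made by CRISPR-Cas9 and grown from single cells. Cells were again unstimulated or stimulated, with 2 libraries a group, which the study's methods call independent clonal replicates. Stimulation was for 48 h with LPS, a bacterial cell wall component, at 50 ng/mL and the cytokine IFNγ at 30 ng/mL (BMDM) or 10 ng/mL (RAW264.7), a pair that makes macrophages produce nitric oxide through iNOS. For BMDM, the study's methods describe iNOS KO mice of the line B6.129P2-Nos2tm1Lau/J, C57BL/6J as WT, and bone marrow pooled by genotype. The p-values below measure the spread between libraries, which may be technical. Those methods name only RAW264.7 for an RNA-seq of iNOS, with 3 replicates a group and iNOS KO cells of that line. The cell type of the first table, and with it the IFNγ dose, the mouse origin and the strains, therefore rests on its labels.

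Ribosomal proteins are made in nearly equal numbers, and their mRNAs are among the most abundant of a growing cell. Most of these mRNAs begin with a cytosine followed by a run of pyrimidines, the 5′ terminal oligopyrimidine (TOP) motif, through which the kinase complex mTORC1 and the RNA-binding protein LARP1 set their translation and stability. Macrophages activated by LPS and IFNγ shift their transcription toward inflammatory genes and, in mice, produce nitric oxide.

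At the annotated start base, the TOP motif was seen in a subset of the genes. Whether the annotated starts are those used in these cells was not tested. RefSeq promoter sequences of the mouse build GRCm38.p6 covered 67 of the 87 genes, with 79 start sites. A C at the start base followed by at least 4 more pyrimidines (C or T) stood at 14 of these 79 start sites (17.7%), against 823 of all 32851 start sites in the same table (2.51%). When the C and its 4 pyrimidines could lie anywhere within 5 bases before to 9 bases after the annotated start, the share was 41.8% of the members' sites and 18.3% of all sites. The hexamer CGGAAG, read on either strand of the 300-base promoters, stood in 47 of 79 (59.5%) against 16.9% of all promoters, and CACGTG in 8 of 79 (10.1%) against 7.15%. The sequences below run 5′ to 3′ on the strand of the gene from 10 bases before to 19 bases after the start base, and capitals mark the unbroken pyrimidine run that begins with C at the start base. The 8 with a run are those of the genes described below, and the last 3, without one, belong to the gene with the largest response and to the genes that carry the name only.
Rps6, chr4:86857348-86857377, minus strand: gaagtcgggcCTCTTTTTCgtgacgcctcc
Rps10, chr17:27635225-27635254, minus strand: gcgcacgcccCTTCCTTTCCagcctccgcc
Rps21, chr2:180257369-180257398, plus strand: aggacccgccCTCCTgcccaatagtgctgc
Rps27, chr3:90213629-90213658, minus strand: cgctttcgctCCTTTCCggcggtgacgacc
Rps27rt, chr9:114982720-114982749, minus strand: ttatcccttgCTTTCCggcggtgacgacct
Rpl14, chr9:120571507-120571536, plus strand: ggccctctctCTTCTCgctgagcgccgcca
Rpl38, chr11:114668570-114668599, plus strand: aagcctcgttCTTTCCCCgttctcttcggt
Rplp2, chr7:141447641-141447670, plus strand: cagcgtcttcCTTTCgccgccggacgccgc
Rpl22l1, chr3:28805498-28805527, plus strand: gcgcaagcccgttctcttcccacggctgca
Rpl7l1, chr17:46782637-46782666, minus strand: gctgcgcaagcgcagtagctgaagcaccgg
Rps19bp1, chr15:80264287-80264316, minus strand: cggaagtagctcgccgcgtgtgggcggggc

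The libraries held 15072109 to 18878107 counts in the BMDM table and 11876719 to 44583327 in the RAW264.7 table. Nos2, which encodes iNOS, stood at 1.25 to 1.53 CPM (counts scaled to library size, and to library composition by the TMM method) in unstimulated WT BMDM libraries and at 10370.2, 11533 and 11312 CPM after stimulation. In the iNOS KO it was 0 in the 3 unstimulated libraries and 870.5, 891 and 912 CPM in the stimulated ones, so a Nos2 transcript was still counted. In RAW264.7, Akr1a1 stood at 427 and 488 CPM (WT unstimulated), 576 and 675 (WT stimulated), 206 and 21.8 (KO unstimulated), and 370.4 and 212 (KO stimulated). It was lower in the KO in each state, without overlap, but not past the test (adjusted p = 0.56 unstimulated and 0.643 stimulated). The titles of the B libraries of both unstimulated RAW264.7 groups read stimulated, while their treatment entries read unstimulated. Nos2 stood at 30.7 and 38.1 CPM in these libraries against 4155 to 8806 in the stimulated ones, and they were kept as unstimulated. Of 11 macrophage markers, 8 to 10 exceeded 1 CPM in each group. The 11 summed to 5894 to 13566 CPM in the BMDM table and 3420.0 to 12439.8 in the RAW264.7 table. Cd163 did not exceed 1 CPM in any group, and Mertk did so only in stimulated WT BMDM libraries. Mrc1 did not exceed 1 CPM in unstimulated iNOS KO or in any RAW264.7 group. The defining markers of neutrophils (Ly6g), fibroblasts (Col1a1) and lymphocytes (Cd3e) did not exceed 1 CPM in any group, and no lymphocyte marker did. Other markers passed 1 CPM after stimulation: S100a8 in every stimulated group, Camp in the iNOS KO, Dcn in every stimulated group but the Akr1a1 KO, and Pdgfra in WT BMDM libraries. The neutrophil list summed to 0.433 to 1.17 CPM in unstimulated and 35.5 to 62.1 CPM in stimulated BMDM libraries, and to as much as 420.0 in stimulated RAW264.7. The fibroblast list summed to 0.176 to 0.389 CPM in unstimulated BMDM libraries, to 3.78 to 5.13 in stimulated WT and 11.5 to 17.1 in stimulated iNOS KO, and to as much as 3.87 in stimulated RAW264.7. The part of these markers in the results below was not tested.

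Stimulated WT macrophages gave a much smaller part of their counts to ribosomal protein genes, and iNOS KO macrophages did not show a drop of that size. The 87 genes together took 4.05 ± 0.0782% (SD, n = 3) of the counts in unstimulated WT BMDM libraries and 1.23 ± 0.0716% in stimulated ones. In the iNOS KO the shares were 3.88 ± 0.0231% and 3.26 ± 0.169%. In RAW264.7 they were 4.02 ± 0.132% (n = 2) unstimulated and 1.53 ± 0.0413% stimulated for WT, and 4.14 ± 0.237% and 1.39 ± 0.294% for the Akr1a1 KO. No stimulated WT BMDM or stimulated RAW264.7 library reached any unstimulated or iNOS KO library. These are shares of the RNA in a bulk library, so fewer cells with these mRNAs and less mRNA per cell cannot be told apart, and the amount per cell was not measured.

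**Figure D1:**
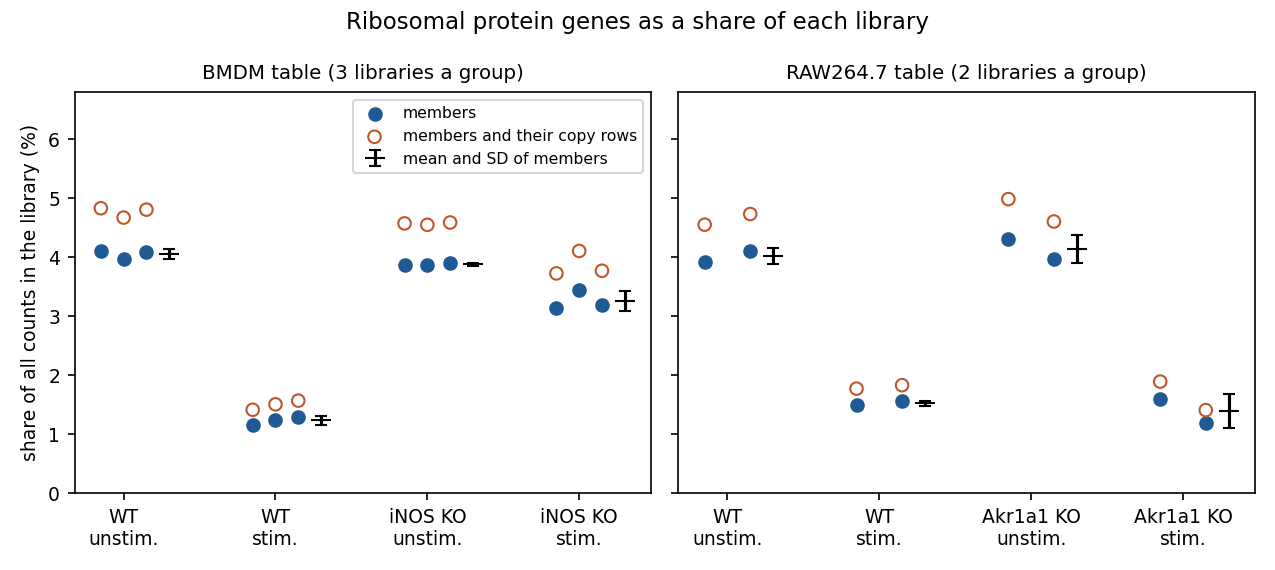
Share of all counts in each library (%, y axis) taken by the 87 ribosomal protein genes (filled circles) and by these genes with their near-identical copy genes (open circles), by group. The bar gives the mean and SD of the filled circles, which lie at 3.26% or above in unstimulated and iNOS KO groups on average and at 1.53% or below in the other stimulated groups.

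Levels per length differed widely between the genes. Among the 77 large- and small-subunit genes tested, the mean level over all BMDM libraries ran from 0.723 CPM per kb of gene model (Rpl21) through a median of 165 to 1898 (Rplp1, an acidic protein of the ribosomal stalk). In RAW264.7 the lowest and highest were again Rpl21 (0.740) and Rplp1 (1130.3), with a median of 159.6. Both tables had 11 genes under 50 CPM per kb, among them genes whose counts lay mostly in copies elsewhere in the genome, as described below.

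In WT BMDM libraries, stimulation lowered nearly the whole family. Of 84 genes tested, 79 fell and 1 rose by edgeR's quasi-likelihood test (adjusted p under 0.05), where 28.5% of all 18691 genes tested fell and 32.4% rose. A fall of more than 1 on the log2 scale was seen for 60 members, against 15.7% of all genes. The median log2 fold change was -1.35 over the members and 0.07 over all genes. Both subunits moved alike, with 44 of 46 large-subunit genes lower (median -1.40) and 30 of 31 small-subunit genes lower (median -1.38). The 4 members not called were Rpl24, Rpl29, Rpl3l and Rps10.

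Among large-subunit genes, Rpl10a, whose protein lies at the L1 stalk, stood at 595, 568 and 604 CPM in unstimulated WT libraries and at 122, 125 and 119 in stimulated ones. It fell by 2.27 ± 0.07 (log2, SE, adjusted p = 2.81e-14). Rpl14 fell by 2.18 ± 0.07. Rpl5 and Rpl11, which travel together with a small ribosomal RNA and can bind the p53 regulator Mdm2, fell by 1.70 ± 0.06 and 1.57 ± 0.08. Rpl17 fell by 2.23 ± 0.36, with a wide spread among unstimulated libraries (143, 111 and 255 CPM) and none of them near the stimulated ones (30.4, 37.9 and 39.7).

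Among small-subunit genes, Rps21 stood at 152, 123 and 148 CPM unstimulated and 21.95, 29.1 and 30.9 stimulated. It fell by 2.37 ± 0.11 (adjusted p = 9.52e-12), the most of the subunit. Rps6, the substrate by which S6 kinase activity is usually read, went from 869.7, 840.3 and 872 CPM to 210.2, 237 and 240.0 and fell by 1.91 ± 0.07. Rps23, a protein of the decoding centre, fell by 2.08 ± 0.09, Rpsa, the laminin receptor family member at the mRNA exit, by 1.32 ± 0.08, and Rps3, at the mRNA entry, by 0.98 ± 0.08. For each of these genes the stimulated WT libraries lay below every unstimulated library.

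The stalk genes ran from a large to a small fall. Rplp2 fell by 1.51 ± 0.07, Rplp1 by 0.43 ± 0.07 and Rplp0, which anchors the other P proteins, by 0.23 ± 0.08 (adjusted p = 0.0163). Rplp0 stood at 798, 752 and 812 CPM unstimulated and 596, 683 and 731 stimulated. Rpl41, the smallest ribosomal protein, likewise fell little, by 0.21 ± 0.08 (adjusted p = 0.0416), and Rps2, at the mRNA entry, by 0.34 ± 0.12.

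The paralogs spread more widely than the standard genes. Rpl22l1, the paralog of Rpl22, had the largest fall of all members, by 3.33 ± 0.14, from 42.4, 47.7 and 42.3 CPM to 4.02, 4.12 and 5.06, while Rpl22 itself fell by 1.16 ± 0.07. Rps27l, a paralog of Rps27 that p53 induces, fell by 0.65 ± 0.08 and Rps27 by 1.32 ± 0.35. The retrogene Rps27rt fell by 1.26 ± 0.48 (adjusted p = 0.0325), from 66.3, 34.0 and 29.8 CPM to 22.02, 12.8 and 19.6. Rpl3l, the heart and muscle form of Rpl3, stood below 1 CPM in every BMDM library. Of the genes that carry the name only, Rpl7l1 fell by 0.27 ± 0.06 and Rps19bp1 rose by 0.25 ± 0.11 (adjusted p = 0.0491), a rise that turned to -0.21 without a composition factor.

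Among stimulated BMDM libraries, the iNOS KO stood above WT for almost every member. The comparison asks what the loss of iNOS changes once macrophages are activated, and it shares the stimulated WT libraries with the response above. Of 84 members 75 were higher and 0 lower (24.2% of all genes were higher and 24.2% lower), with a median log2 fold change of 1.38, a fold of 2.60, against -0.04 over all genes. None was lower at an unadjusted p under 0.05 or by DESeq2. A difference of more than 1 was seen for 61 members and 10.7% of all genes. The counts were 42 of 46 for the large subunit and 30 of 31 for the small subunit, with the same median of 1.42. For genes as abundant as most members (mean log2 CPM over 6, 3488 genes), the median of all was 0.04. The members minus the median of all genes gave 1.42 to 1.44 under each of 5 ways of scaling the libraries. Scaling shifts members and all genes nearly alike, so this difference could hardly vary.

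The largest difference among members with a mean log2 CPM over 3 was that of Rpl22l1. It stood at 28.0, 27.1 and 37.4 CPM in stimulated iNOS KO libraries against 4.02 to 5.06 in WT, a difference of 2.81 ± 0.14 (adjusted p = 4.02e-11). Rps23 stood at 535, 594 and 519 CPM against 101, 125 and 130.4, a difference of 2.21 ± 0.09. Rps21 (121, 121 and 132 CPM) and Rpl10a (514, 614 and 518 CPM) were higher by 2.19 ± 0.11 and 2.17 ± 0.07, and Rps6 (807, 914 and 830.5 CPM) by 1.89 ± 0.07. In each, the lowest KO library lay above the highest WT library.

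At the other end, Rplp0 (901, 1064 and 894 CPM) was higher by 0.51 ± 0.08, Rpl41 (668, 764 and 667 CPM) by 0.46 ± 0.09 and Rpl7l1 by 0.22 ± 0.06, each past the test. Rps19bp1 had a difference of -0.11 ± 0.11 (adjusted p = 0.415). Rps27a, a fusion of ubiquitin to a small-subunit protein, was higher by 1.14 ± 0.36, yet its libraries spread widely: 199, 207 and 83.7 CPM in stimulated WT and 246, 212 and 621 in stimulated iNOS KO. The 9 members not called were Rpl21, Rpl24, Rpl29, Rpl36al, Rpl3l, Rpl7a, Rps10, Rps19bp1 and Rps27rt.

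Within the iNOS KO, stimulation moved the family little. With TMM scaling 32 of 84 members rose (38.1%, against 27.3% of all genes) and 5 fell (5.95%, against 24.6%), and their median was 0.16 against 0.00 over all genes. This direction depended on scaling: without a composition factor 0 rose and 50 fell, with a median of -0.26 against -0.41 over all genes. The members lay 0.15 to 0.16 above the median of all genes under all 5 scalings, a difference that scaling by its nature hardly alters. TMM factors were 1.13 to 1.20 in unstimulated and 0.813 to 0.889 in stimulated BMDM libraries. The genes that rose under TMM included those of the stalk, Rplp0 (0.39 ± 0.08), Rplp1 (0.41 ± 0.07) and Rplp2 (0.38 ± 0.07), and Rpl41 (0.53 ± 0.09), of which Rplp0, Rplp1 and Rplp2 turned negative without the factor. The members that fell under TMM were Rpl22l1 (by 0.53 ± 0.11), Rpl5 (by 0.26 ± 0.06), Rpl21, Rpl36al and Rps18. Rpl22l1 in the iNOS KO went from 43.7, 44.5 and 45.9 CPM to 28.0, 27.1 and 37.4, without overlap. Rps6 went from 791, 783 and 790.4 CPM to 807, 914 and 830.5, with a log2 fold change of 0.11 ± 0.06 that did not pass the test (adjusted p = 0.161).

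**Figure D2:**
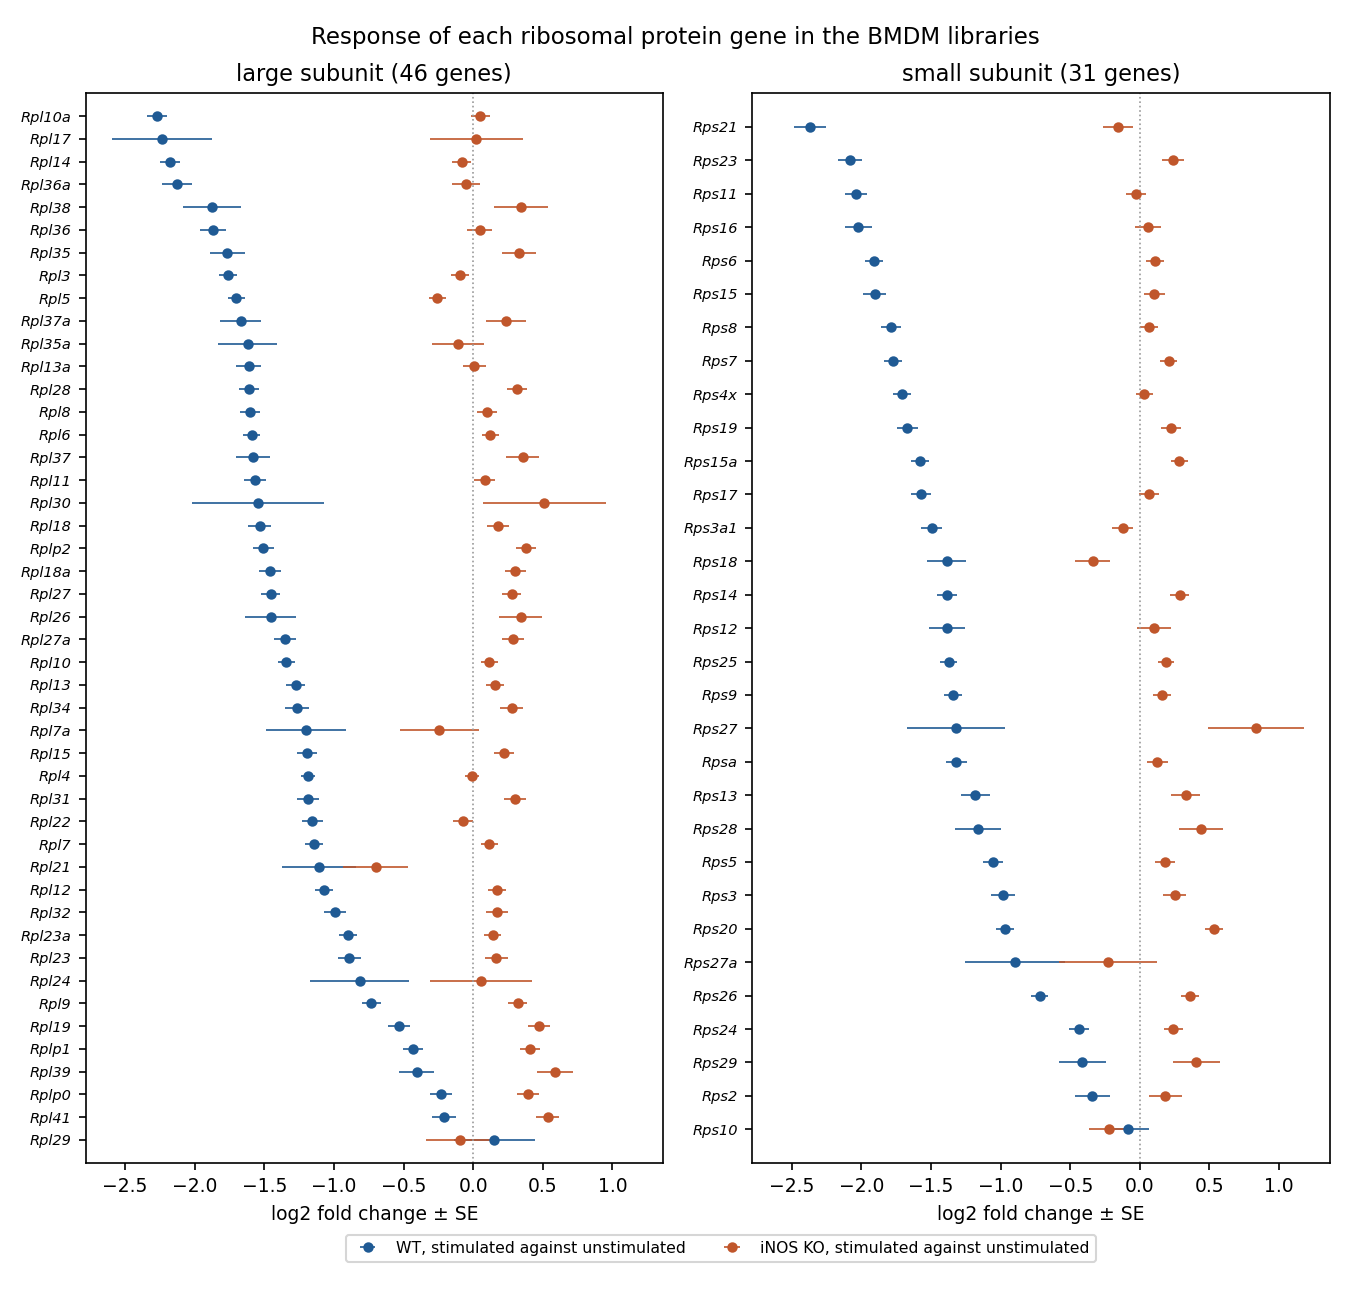
Log2 fold change (x axis, with SE) of each large-subunit gene (left) and small-subunit gene (right) on stimulation in WT (blue) and iNOS KO (orange) BMDM libraries, with TMM scaling. The medians are -1.40 and -1.38 in WT and 0.17 and 0.18 in the iNOS KO, and the iNOS KO values shift below 0 as a group, to a median of -0.26 over all members, without a composition factor.

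The difference between the 2 responses was itself tested as an interaction. It was positive (a higher response in the iNOS KO) for 74 members and negative for 0, against 20% and 15.4% of all genes, with a median of 1.51 (all genes -0.02). None was negative at an unadjusted p under 0.05 or by DESeq2. The interaction was 2.79 ± 0.18 for Rpl22l1, 2.32 ± 0.10 for Rpl10a and 2.02 ± 0.09 for Rps6, and 0.62 ± 0.11 for Rplp0. Rps27a, with its wide spread, gave 0.66 ± 0.50 (adjusted p = 0.345).

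Without stimulation the genotypes were close in their ribosomal protein genes. edgeR called 0 members higher and 0 lower in unstimulated iNOS KO against WT (1.88% and 4.09% of all genes), with a median of -0.11 (all genes -0.01). At an unadjusted p under 0.05, 1 was higher and 16 were lower, where 3200 of all 18691 genes passed in either direction. DESeq2 called 1 lower, and a fit on these 2 groups alone called 3 higher and 27 lower. No share of all genes was computed for DESeq2 or for that fit. Rpl10a, for example, stood at 524, 531 and 535 CPM in the iNOS KO against 568 to 604 in WT, without overlap (-0.15 ± 0.07, adjusted p = 0.247).

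**Figure D3:**
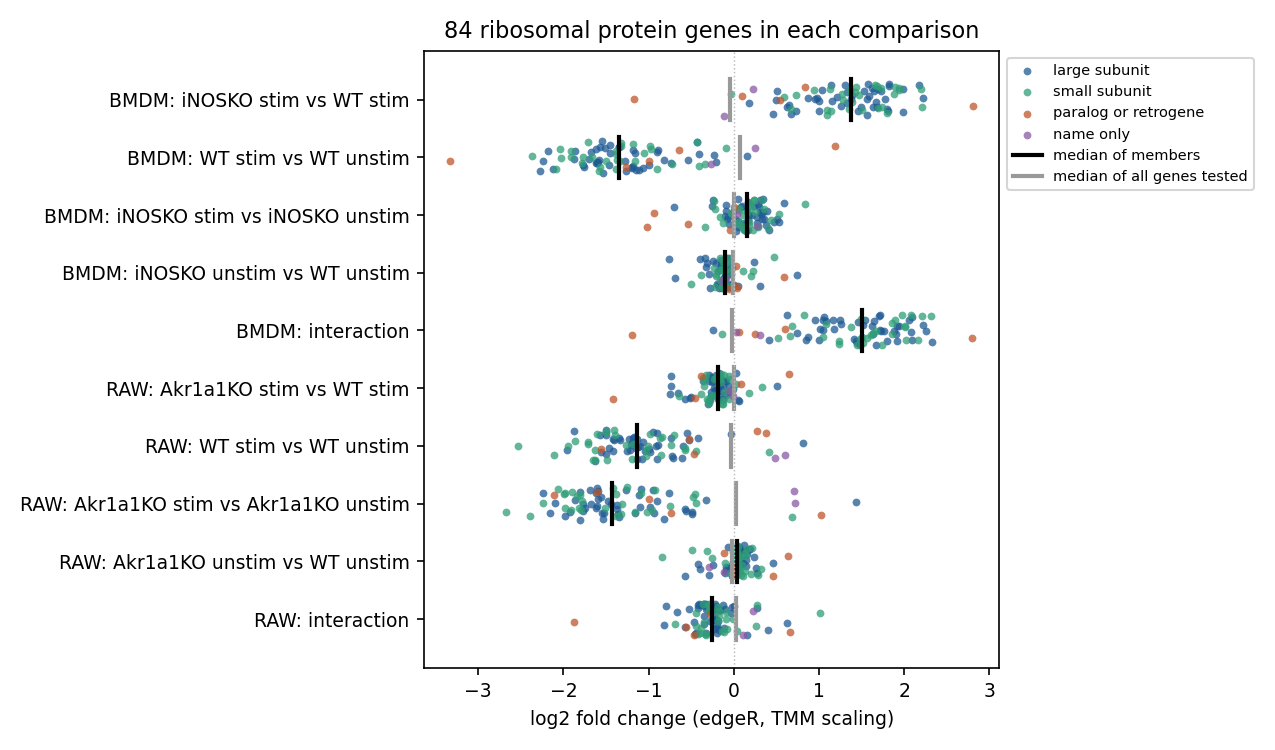
Log2 fold change (x axis) of the 84 tested members, 1 point a gene coloured by class, in each of the 10 comparisons, with the median of the members (black line) and of all genes tested (grey line), under TMM scaling. The members sit at a median of 1.38 in stimulated iNOS KO against WT and of -1.35, -1.13 and -1.43 in the responses of WT BMDM, WT RAW264.7 and Akr1a1 KO RAW264.7, and close to 0 elsewhere except the BMDM interaction (1.51). Only the sign for the iNOS KO response (0.16) flips with scaling, to -0.26 without a composition factor.

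In WT RAW264.7, stimulation also lowered most of the family. Of 84 members, 68 fell and 2 rose, against 19.2% and 18.5% of all 19569 genes tested, with a median of -1.13 (all genes -0.03). The 68 were all among the 79 that fell in WT BMDM libraries, and the share of all genes that fell in both was not computed. The large subunit had 38 of 46 lower (median -1.13) and the small subunit 29 of 31 (median -1.27). Rps21 had the largest fall of all members, from 229 and 244 CPM to 43.9 and 37.9, by 2.53 ± 0.23 (adjusted p = 8.37e-05). Rps23 fell by 2.11 ± 0.15, Rpl14 by 1.96 ± 0.16, Rps27 by 1.95 ± 0.51 and Rpl36a by 1.88 ± 0.17.

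Rps6 fell from 846 and 892 CPM to 309 and 307, by 1.496 ± 0.16, and Rpl10a by 1.56 ± 0.17. Rplp0 (by 0.42 ± 0.14) and Rpl41 (by 0.52 ± 0.14) were again among the smallest falls. Rpl7l1, from 132 and 149 CPM to 219 and 208, rose by 0.60 ± 0.12 (adjusted p = 0.0044), and Rps19bp1, from 23.6 and 24.6 CPM to 31.8 and 35.5, rose by 0.48 ± 0.14 (adjusted p = 0.0232). Without a composition factor Rpl7l1 still rose, by 0.37, and Rps19bp1 gave 0.25 without passing the test. Rpl22l1 fell by 1.56 ± 0.51 (adjusted p = 0.0428), with an unstimulated spread of 15.5 and 32.2 CPM against 3.64 and 12.5.

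In the Akr1a1 KO the response was of the same kind. Stimulation lowered 71 members and raised 3 (19.4% and 19.8% of all genes), with a median of -1.43 (all genes 0.02). In both genotypes 66 members fell, and the share of all genes that did so was not computed. Rps6 went from 1012 and 924 CPM to 318 and 238, and Rps21 from 223 and 217 to 43.6 and 25.4. Rpl7l1 (0.72 ± 0.12) and Rps19bp1 (0.71 ± 0.14) rose here too, with Rpl29, which stood at 0.83 to 0.86 CPM unstimulated and 2.28 to 2.32 stimulated. With the copies described below counted in, Rpl29 instead fell by 1.07.

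Between stimulated Akr1a1 KO and WT RAW264.7, edgeR called 0 members higher and 0 lower (0.0869% and 0.199% of all genes), with a median of -0.19 (all genes 0.01). At an unadjusted p under 0.05, 9 of 84 were lower and 0 higher. In either direction together this share was close to that of all genes (2178 of 19569), which were not split by direction. By sign alone, 75 of the 84 log2 fold changes were negative and 9 positive. DESeq2 called 4 lower. Rpl37a stood at 192 and 184 CPM in WT and 128 and 95.3 in the KO (-0.75 ± 0.16, adjusted p = 0.144), and Rpl31 at 254 and 229 in WT and 153 and 136 in the KO (-0.74 ± 0.13, adjusted p = 0.0879), both without overlap. Rpl38 was among the members lowest in the KO (-0.65 ± 0.34, adjusted p = 0.514). The median moved from -0.42 without the A library of the stimulated KO to -0.02 without its B library. For Rpl37a and Rpl31 the unstimulated KO libraries also lay below the WT ones, with log2 differences of -0.57 ± 0.16 and -0.39 ± 0.13 that did not pass the test.

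Unstimulated Akr1a1 KO against WT gave 0 members higher and 0 lower by edgeR (0.23% and 0.353% of all genes) and 0 by DESeq2. The median was 0.04. At an unadjusted p under 0.05, 1 was higher and 3 were lower, against 1574 of all 19569 genes in either direction. The interaction of genotype with stimulation gave 0 higher and 0 lower (0.00511% and 0.0153%) and 0 by DESeq2. Its median was -0.26 (all genes 0.03). At an unadjusted p under 0.05, 1 was higher and 7 were lower, against 1079 of all genes in either direction. With 2 libraries a group, precision was lower than in the BMDM table: the SE of the difference between stimulated genotypes was 0.16 for Rps6 in RAW264.7 and 0.07 in the BMDM table.

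Ribosomal protein genes have many processed copies in the mouse genome, and the counts of some members lay mostly in those copies. By sequence, 75 members had 971 other genes in the table with at least 90% identity over at least 80% of the coding sequence. The copies held 15.5% of the joint counts in the BMDM table and 13.8% in the RAW264.7 table, and for 11 members they held more than the member itself. The largest copy shares in the BMDM table were those of Rpl29 (98.5%), Rpl26 (98.3%), Rps2 (96.6%), Rps10 (95.9%), Rpl21 (94.2%) and Rpl30 (91.6%). The pseudogene Gm8730, 98.7% identical to Rplp0, alone held 179624 counts. How reads that match both a member and a copy were counted is not given in the sources used here, so the values of these members on their own are uncertain.

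With the counts of the copies added to each member, more members passed the test. No share of all genes was computed for this fit. In stimulated iNOS KO against WT, 80 of 84 were then higher with a median of 1.42, and the exceptions were Rps27rt, Rps19bp1, Rpl36al and Rpl3l. In WT BMDM libraries 82 fell on stimulation. In RAW264.7 77 fell in WT and 78 in the Akr1a1 KO. Rps10, a protein of the small-subunit head, stood at 5.68 to 6.40 CPM in unstimulated WT BMDM libraries and 4.93 to 6.72 in stimulated ones in its own count, which did not pass in any comparison. With copies, Rps10 was 1.19 higher in stimulated iNOS KO than WT (adjusted p = 1.91e-09) and fell by 0.88 in WT RAW264.7, where its own count had given 0.41. Rpl29 and Rpl21 with copies were 0.78 and 1.57 higher in stimulated iNOS KO. Rplp0 hardly moved, from 0.51 to 0.54. The share of the library taken by members and copies was 4.77%, 1.496%, 4.57% and 3.87% in the WT unstimulated, WT stimulated, iNOS KO unstimulated and iNOS KO stimulated BMDM groups.

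**Figure D4:**
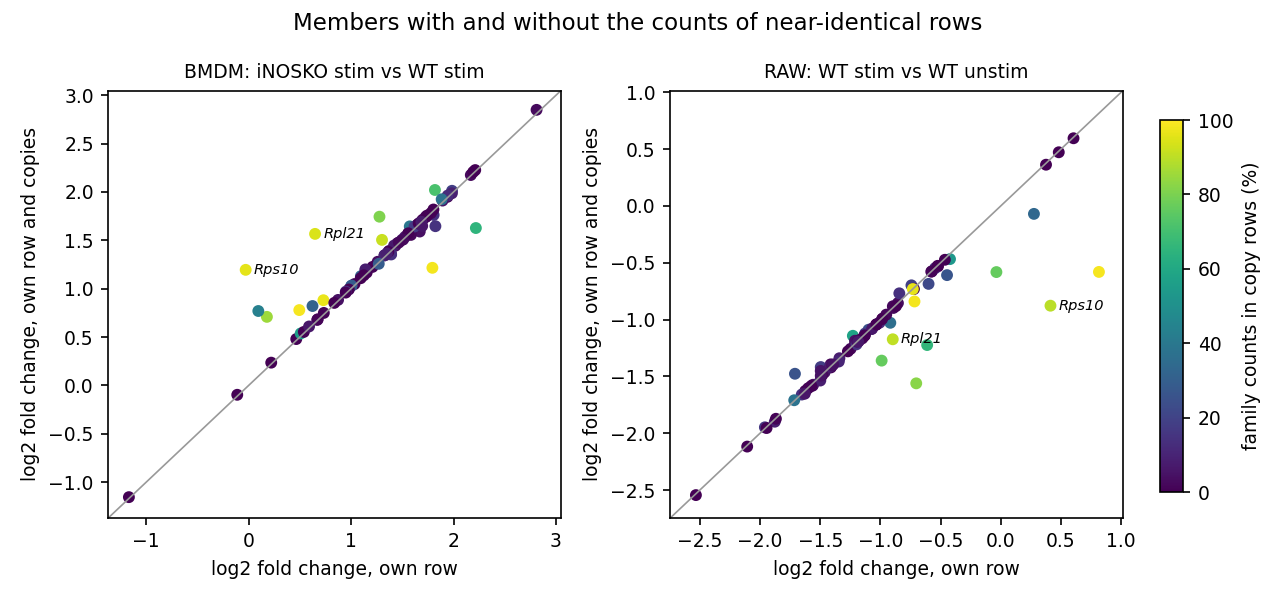
Log2 fold change of each member from its own counts (x axis) and with the counts of its near-identical copies added (y axis), coloured by the share of joint counts held by copies (%), for stimulated iNOS KO against WT BMDM libraries (left) and for stimulation in WT RAW264.7 (right). Most points lie on the line of equality, and those off it, such as Rps10 (-0.03 against 1.19 on the left), are members whose copies hold much of the counts.

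The members with a pyrimidine run at the annotated start base had a median of -1.59 on stimulation of WT BMDM libraries (14 genes, 13 lower), against -1.30 for the other 50 tested members with an entry (47 lower). In stimulated iNOS KO against WT the medians were 1.71 (12 higher) and 1.36 (45 higher), and in stimulated WT RAW264.7 -1.47 and -1.07. The ranges overlapped widely, from -2.37 to -0.09 and from -3.33 to 1.19 in WT BMDM libraries, and these are descriptions without a test. Of the 8 genes shown above with such a run, Rps21, Rpl14, Rps6, Rpl38 and Rplp2 fell more than the median member in WT BMDM libraries, Rps27 and Rps27rt fell less, and Rps10 was not called. Rpl22l1, with the largest fall in WT BMDM libraries, has no C at its annotated start. A C with 4 more pyrimidines does lie between 5 bases before and 9 after that start, as in some others of the 50.

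Other genes of the translation machinery moved with the family in WT BMDM libraries. Rack1, a scaffold on the small subunit whose gene carries another name, fell by 1.62 ± 0.08, and Fau, which encodes a small-subunit protein fused to a ubiquitin-like one, by 0.79 ± 0.08. All 6 elongation factors tested fell (median -1.33), led by Eef1a1, which brings aminoacyl-tRNA to the ribosome. Eef1a1 went from 7724, 7676 and 7859 CPM to 1401, 1490.5 and 1576, a fall by 2.38 ± 0.06. Of 13 subunits of initiation factor eIF3, 11 fell (median -0.74), and of 18 other mRNAs with a TOP motif, a list that includes Eef1a1, Fau and Rack1, 17 fell and Tpt1 rose by 0.15 ± 0.05, which turned to -0.31 without a composition factor.

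Ribosome assembly factors fell in 52 of 56 cases (median -1.08). Dkc1, the pseudouridine synthase of ribosomal RNA, fell by 3.13 ± 0.16, and Sbds, which frees the new large subunit for use, rose by 1.68 ± 0.08. Of 20 subunits and factors of RNA polymerase I, the enzyme that makes ribosomal RNA, 16 fell and 2 rose, with Polr1b lowest (-2.12 ± 0.09). Other initiation factors were mixed, with 9 lower and 5 higher of 20. Eif4a2 rose by 1.13 ± 0.18 and Eif2b3 fell by 1.45 ± 0.11.

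In stimulated iNOS KO against WT most of these lists stood higher. Rack1 was 1.59 ± 0.08 and Fau 1.18 ± 0.08 higher. The counts were 6 of 6 for elongation factors (median 1.19), 11 of 13 for eIF3 (0.67), 18 of 18 for other TOP mRNAs (0.98), 51 of 56 for assembly factors (0.79) and 11 of 20 for RNA polymerase I (0.35, with 2 lower). Other initiation factors were higher in 10 and lower in 4 of 20 cases (0.27). Eef1a1 stood at 8590.3, 9238 and 8783 CPM in stimulated iNOS KO libraries, 2.57 ± 0.06 above WT. Dkc1 was 2.20 ± 0.16 higher and Sbds 0.97 lower on the log2 scale (-0.97 ± 0.08). In the response of the iNOS KO itself, 33 of 56 assembly factors fell and 5 rose under TMM, with a median of -0.33.

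Regulators of ribosome production were split. Of 26 tested, 13 rose and 11 fell in WT BMDM libraries on stimulation, from Mxd1, a Myc antagonist (6.05 ± 0.10), to Deptor, an mTOR inhibitor (-2.98 ± 0.13), and the stimulated iNOS KO exceeded stimulated WT for 7 and lay below it for 10. Myc, the transcription factor that drives ribosome genes, rose with stimulation in both genotypes, from 93.0, 76.8 and 92.3 CPM to 146, 159 and 176 in WT (0.88 ± 0.08), and stood at 353, 367 and 356 in stimulated iNOS KO (1.16 ± 0.08 above WT). Larp1 fell by 0.46 ± 0.06 in WT and was 0.87 ± 0.06 higher in stimulated iNOS KO. Mtor fell by 0.25 ± 0.08 in WT and differed by 0.05 ± 0.08 between the stimulated genotypes (adjusted p = 0.646). Trp53 was 1.44 ± 0.08 higher and Ddit4, a stress-induced mTORC1 inhibitor, was lower (-1.50 ± 0.21) in stimulated iNOS KO than WT. Some regulators differed between the genotypes without stimulation too. Of the 26, 1 was higher and 5 were lower in unstimulated iNOS KO than WT (1.88% and 4.09% of all genes). The log2 differences ran from -0.95 for Ddit4 to 0.52 for Myc.

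**Figure D5:**
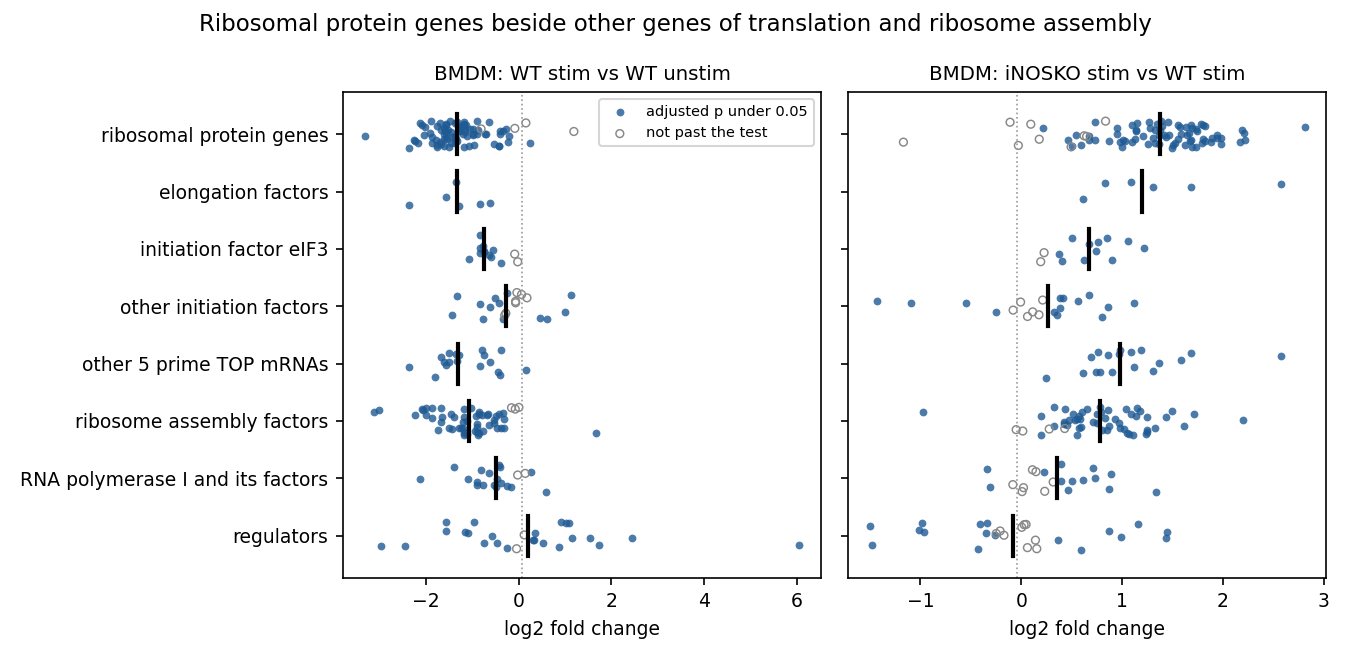
Log2 fold change (x axis) of the ribosomal protein genes and of 7 other gene lists (y axis), 1 point a gene, filled where past the test, with the list median (black line), for stimulation of WT BMDM libraries (left) and stimulated iNOS KO against WT (right), under TMM scaling. Medians on the left run from -1.35 for the members to 0.21 for regulators, and on the right from 1.38 to -0.08, with the dotted line at the median of all genes. Without a composition factor the regulators' medians turn to -0.26 and 0.02.

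In WT RAW264.7 most of these lists had a median below 0 as well, other than the other initiation factors (5 higher and 4 lower of 20, median 0.07) and the regulators (8 higher and 8 lower of 26, median 0.17), whose medians turned to -0.16 and -0.07 without a composition factor. On stimulation Rack1 fell by 1.21 ± 0.16 and Fau by 0.87 ± 0.16. The counts that fell were 5 of 6 elongation factors (median -1.03), 8 of 13 eIF3 subunits, 15 of 18 other TOP mRNAs (-1.16), 27 of 56 assembly factors (2 rose) and 7 of 20 RNA polymerase I genes (2 rose). Eef1a1 fell by 2.30 ± 0.19 and Dkc1 by 1.96 ± 0.19, and Sbds rose by 2.03 ± 0.11. Myc rose by 5.47 ± 0.47.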

How the data were processed

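RNA-seq was deposited as 2 tables of gene counts, 12 libraries labelled BMDM and 8 of RAW264.7. The counts are whole numbers that the authors deposited without normalization. Per the study's methods and the submitters' processing notes, sequencing was done commercially, CASAVA made the base calls and STAR aligned reads to mm10. The counting tool, its versions and the handling of reads that match several places are not given in the sources used here. No column of sample values was left out (0).

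Samples were grouped by genotype and treatment entries. Genes with at least 10 counts in total in a table (18691 and 19569) were scaled by TMM and tested with edgeR's quasi-likelihood test (edgeR 4.0.16, limma 3.58.1, R 4.3.3) on all groups of a table without a replicate block, with Benjamini-Hochberg adjustment over all genes tested, a threshold of 0.05 and, where stated, a log2 limit of 1. CPM values use the TMM library sizes. The test asked for stimulated KO against WT, each response, unstimulated KO against WT, and the interaction. The script was tested on simulated data. Of 100 genes changed 2-fold, it recovered 90 for stimulated iNOS KO against WT BMDM libraries. It recovered 34 of 100 for stimulated Akr1a1 KO against WT RAW264.7, so an absence of calls there is weak evidence of no change. Of 100 genes changed 4-fold it recovered 99 (BMDM) and 79 (RAW264.7). Among genes left unchanged it falsely called 9 (BMDM) and 17 (RAW264.7). Depth was 11876719 to 44583327 counts a library.

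Copies were found by aligning coding sequences to transcripts of the reference annotation (BLAST+ 2.17.0). Start sites came from RefSeq (GRCm38.p6). Positions listed in the count tables are of another build and were not used. Tables and plots were made with Python 3.11.15, pandas 2.3.3 and matplotlib 3.10.9. Alternatives were DESeq2 1.42.0, other scalings and filters, protein-coding genes alone, only the groups compared, a replicate block, copies added, and each library left out. Genes named are the 5 members with the largest and the 5 with the smallest fold change (mean log2 CPM over 3) in stimulated KO against WT and in the WT response of each table, the paralogs and their standard genes, a set of well-known members, the extremes of each companion list, and Myc, Mtor, Larp1 and Eef1a1. Members not called, and those that went against the others, were named after their values were seen. The members and lists were chosen with earlier results of these data known.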

Additional observations from a re-analysis of the deposited data

Results flagged for a closer look

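The response to stimulation differed between WT and iNOS KO BMDM libraries by the test of the difference itself (edgeR's interaction term) for 74 members, all with a higher response in the iNOS KO, and the median difference over the 84 members tested was 1.51 on the log2 scale. Among the members named, the difference was 2.79 for Rpl22l1, 2.32 for Rpl10a, 2.32 for Rps23, 2.26 for Rpl17 and 2.21 for Rps21. It was smaller for Rpl41 (0.74), Rplp0 (0.62), Rps27l (0.60) and Rpl7l1 (0.31).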

How the results depend on the processing

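Of the counts of members called and the medians, 431 recomputed values stayed close to those reported, 24 moved and 1 reversed. Values of single members and of group shares of the library were counted together, and 8054 of them stayed. Among single members, 106 values passed and 144 lost the threshold, and 25 reversed. Another 25 values moved by at least the SD of their group, all of them library shares. Without a composition factor, a choice made after seeing the data, the medians were 1.48 for stimulated iNOS KO against WT BMDM libraries, -1.81 for the WT response, -0.26 for the iNOS KO response (reversed), -1.37 for the WT RAW264.7 response and -1.59 for that of the Akr1a1 KO. The median of all genes then shifted to -0.39, -0.41, -0.26 and -0.12 in the 4 responses. The share of all calls that were higher went from 53.2% to 33.9% (WT BMDM response), from 52.6% to 28.2% (iNOS KO response), from 31.5% to 42.6% (unstimulated iNOS KO against WT) and from 49.1% to 35.8% (WT RAW264.7 response). In the same setting the WT BMDM value of Rps19bp1 turned to -0.21, and in the iNOS KO response these members turned negative: Rpsa -0.29, Rplp1 -0.00769, Rps3 -0.17, Rplp0 -0.026, Rpl10 -0.30, Rps6 -0.31, Rpl7 -0.30, Rps4x -0.39, Rpl10a -0.37, Rpl11 -0.33, Rps19 -0.20, Rps23 -0.18, Rplp2 -0.040, Rpl31 -0.12, Rps12 -0.32, Rpl23a -0.28, Rpl7l1 -0.38, Rps19bp1 -0.14 and Rpl13a -0.41. With copies added, Rps10 turned to 1.19 (stimulated iNOS KO against WT), 0.20 (iNOS KO response), 1.42 (BMDM interaction), -0.88 (WT RAW264.7) and -1.19 (Akr1a1 KO response). Upper-quartile scaling gave a BMDM interaction median of 1.43. A log2 limit of 1 left 0 of the 37 calls in the iNOS KO response. In unstimulated iNOS KO against WT, where 0 members were called, DESeq2 called 1, no filter on low counts 12 and a fit on these groups alone 30. In RAW264.7, members called went from 0 to 4 (DESeq2) and 5 (no filter) for stimulated KO against WT. With no filter they went to 2 for the unstimulated genotypes and 1 for the interaction. The share of all genes was not computed for DESeq2, unfiltered fits or fits on only the groups compared. Nor was it computed for fits with copies added, with a replicate block or with libraries left out.

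Leaving out each library in turn gave 74 to 77 calls and medians of 1.33 to 1.49 for stimulated iNOS KO against WT, 74 to 81 and -1.41 to -1.30 for the WT BMDM response, 27 to 45 and 0.10 to 0.18 for the iNOS KO response, 0 to 14 and -0.14 to -0.09 for the unstimulated genotypes, and 72 to 76 and 1.43 to 1.58 for the interaction. The 14 calls came without iNOS KO stimulated B, and 8 without WT stimulated A. In RAW264.7 the ranges were 0 to 0 and -0.42 to -0.025 for stimulated KO against WT, 59 to 70 and -1.23 to -1.01 for the WT response, 65 to 75 and -1.64 to -1.26 for the KO response, 0 and -0.02 to 0.11 for the unstimulated genotypes, and 0 and -0.51 to -0.12 for the interaction. A lone library of a group was assumed to vary like the others. Without both unstimulated B libraries, whose titles disagree with their treatment entries, 54 members fell in WT (median -1.02) and 66 in the KO (-1.44). Replicate letters were not taken to pair libraries in the main fit. The correlation of deviations from group means between same-lettered libraries ran from -0.0969 to 0.102 in the BMDM table. In RAW264.7, where the letters may mark clones, it was 0.254 between the WT states and 0.104 between the KO states. Between genotypes it ran from -0.0959 to 0.0104. With 2 libraries a group the A and B correlations are equal by construction, so these values cannot decide a pairing by clone. With a replicate block the calls were 76, 80, 38, 0 and 75 in the order above for BMDM and 0, 69, 74, 0 and 0 for RAW264.7, and no count of calls moved by over 1.5 times.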
